A study of Equus caballus with 12 samples.

Results

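The S100 genes described here are S100A3, S100A4, S100A6, S100A10, S100A12 and S100A13, the 6 members of the family among the 1341 genes that the authors listed as different between licensed and naive equine mesenchymal stem cells (MSCs). S100A4, S100A6, S100A10, S100A13 and S100A3 were lower in licensed cells of all 6 horses, as were 93.3% of all genes listed as lower. For S100A3 in horse 5 the difference lay within counting error. As ratios of the group means these genes were lower by 4.24-fold, 2.56-fold, 3.23-fold, 2.20-fold and 3.44-fold, in that order, and S100A12 was 4.56-fold higher. MSCs are plastic-adherent stromal cells of the marrow with the capacity to give rise to skeletal and fat tissue. Primary cells from the bone marrow of 6 horses were each grown for 72 hours either in standard medium with serum (naive) or with 2 recombinant human cytokines added, IL-1β at 2 ng/ml and TGF-β2 at 1 ng/ml (licensed), which gave 1 naive and 1 licensed polyA-selected RNA library per horse. The labels give neither age, sex nor breed of the horses, nor the passage of the cells.

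The members were chosen by the comparison itself, because a gene had to change more than 2-fold, at an adjusted p under 0.05, to be listed by the authors. Their differences between licensed and naive cells are therefore given as a description, with no test of their own. The ratio of adjusted p to p in the deposited table fits 13183 tested genes, of which 10.2% were listed, 5.09% as lower and 5.08% as higher. When the 1341 listed genes were fitted again with limma, 46.8% of them were called lower, the same 5 members included, and 48.4% higher, S100A12 included. This second fit serves for errors and is no further evidence. The member closest to the limit was S100A13, with a log2 fold change of -1.14 in the authors' deposited table. Other S100 genes, such as S100A8, S100A9 and S100A11, did not stand in the table and were not analysed here, so how many members of the family were tested is unknown. Each value is a normalized count, which is the reads of a gene divided by 1 size factor per library. Since lengths were not used, levels are compared between libraries and not between genes.

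S100 proteins are small calcium-binding proteins that carry a pair of EF-hand motifs and mostly act as dimers. On binding calcium most of them open a surface that grips a target protein, such as a myosin or an annexin. Some are also released from cells and act outside them as danger signals on receptors such as RAGE and TLR4. In human most S100A genes sit next to one another in a single cluster, and the S100A13 gene overlaps S100A1 on the opposite strand. No source used here says whether strand was used in counting, so reads of such overlapping genes could not be told apart. In bulk libraries, fewer cells of a type and less RNA per cell cannot be told apart either.

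The libraries of horse 1 were the lowest for 4 of the 5 members that were lower, all but S100A3. Horse 1 had the lowest value among the 6 naive libraries for S100A4, S100A6, S100A10 and S100A13, and again the lowest among the 6 licensed libraries for the same 4 genes. Among the 666 other genes listed as lower, horse 1 was lowest for 276 in naive cells (41.4%) and for 210 in licensed cells (31.5%), against 5.41% to 19.2% and 6.46% to 24.3% for the other horses. It was also highest for 144 of them in naive cells (21.6%) and for 118 in licensed cells (17.7%). The other horses were highest for 10.2% to 21.5% and 10.4% to 27.6%, so horse 1 was not low throughout. The limma log2 fold change of each member without horse 1 is given below. The ratios of gene pairs, the comparison with listed medians and the search for similar genes were not repeated without it. Reads on the listed genes summed to between 1672419 and 1844648 in naive and to between 2718393 and 3424328 in licensed libraries, which is not their sequencing depth, a quantity the table does not give. Of 18 MSC markers, THY1, MCAM, TWIST1 and VIM were listed, all as lower in licensed cells, and in naive cells they reached 18790 ± 10276, 502 ± 183, 2026 ± 660.4 and 242290.1 ± 21513 normalized counts (mean ± SD, n = 6 horses). Markers of myeloid, lymphoid and endothelial cells were not among the listed genes (0 of 20, 0 of 9 and 0 of 9), and their levels were not analysed here. Other cell type lists had genes on both sides. Of 10 adipocyte markers ADIPOQ was listed as higher and CEBPA and FABP4 as lower, with log2 fold changes of 4.63, -3.32 and -1.63 in the authors' deposited table. Of 9 pericyte and smooth muscle markers CNN1 and MYOCD were listed as higher (1.56 and 1.40 in the authors' deposited table) and MYH11 as lower (-2.63). The epithelial marker KRT8 was listed as higher (1 of 11), and the chondrocyte marker SOX9 (1 of 12) and the Schwann cell marker PMP22 (1 of 8) as lower, with 2.74, -1.09 and -1.12 in the authors' deposited table. Of all tested genes 10.2% were listed, 5.09% as lower and 5.08% as higher, and how many genes of each marker list were tested is unknown. The part of such cells in the S100 values was not tested.

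S100A4 (ENSECAG00000008221), also known as fibroblast-specific protein 1, binds the heavy chain of non-muscle myosin and promotes cell motility. Its normalized count was between 22131 and 35230 in the naive libraries, with a median of 26330. In licensed libraries it lay between 3246 and 8549, with a median of 6448. The lowest naive library was 2.59 times above the highest licensed one, so the groups did not overlap, and horse 3 was highest and horse 1 lowest in both conditions. The means were 26894 ± 4613 and 6337 ± 1804 normalized counts (SD, n = 6), and limma's log2 fold change was -2.13 ± 0.21 (SE). The authors' deposited table gave a log2 fold change of -2.09 with an adjusted p of 1.9e-24, the 122nd smallest p of the 1341 listed genes, while by size the fall was the 173rd of 671. In single horses the log2 ratio of licensed over naive was -2.77 in horse 1 and between -2.20 and -1.89 in the other 5. Without horse 1 the limma log2 fold change was -2.001.

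S100A6, or calcyclin (ENSECAG00000008401), was first found as a gene of proliferating fibroblasts and binds CACYBP and several annexins. The naive libraries held 21216 to 33418 normalized counts, with a median of 27119, and the licensed libraries 5092 to 14106, with a median of 11492. Horse 2 was highest and horse 1 lowest in both conditions, and the groups were separated by a factor of 1.504. The mean went from 27882 ± 4296 to 10898 ± 3077 normalized counts (SD, n = 6), a limma log2 fold change of -1.41 ± 0.22 (SE). Horse 1 again had the steepest change, with a log2 ratio of -2.06 against -1.45 to -1.11 in the other horses. Without it the limma log2 fold change was -1.28. The authors' deposited table gave -1.36 with an adjusted p of 2.73e-10.

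S100A10, or p11 (ENSECAG00000019382), differs from the rest of the family in that its EF-hands have lost calcium binding. It pairs with annexin A2 at the plasma membrane, where the complex binds plasminogen and its activator. Its normalized count was 5533 to 11803 in naive libraries, with a median of 8542, and 1552 to 4015 in licensed libraries, with a median of 2487. Horse 3 was highest and horse 1 lowest in both conditions, and the groups did not overlap, with a factor of 1.38 between them. The mean went from 8461 ± 2185 to 2617 ± 819 normalized counts (SD, n = 6), with a limma log2 fold change of -1.71 ± 0.23 (SE). The log2 ratio lay between -2.03 in horse 2 and -1.51 in horse 4, with an SD of 0.20 over the 6 horses, against 0.33 for S100A4 and 0.34 for S100A6. Without horse 1 that order turned, with SDs of 0.21 for S100A10 and 0.13 for both S100A4 and S100A6. Without horse 1 the limma log2 fold change was -1.68. In the authors' deposited table it was -1.69, with an adjusted p of 3.51e-13.

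S100A13 (ENSECAG00000024049), a widely expressed member, takes part in the release of FGF1 and IL-1α, which lack a signal peptide. The naive libraries ranged from 2144 to 2815 normalized counts, with a median of 2575, and the licensed ones from 752 to 1356, with a median of 1226. Horse 1 was lowest in both conditions, the other 5 naive libraries lay between 2490.0 and 2815, and the groups were separated by a factor of 1.58. The mean went from 2557 ± 239 to 1162 ± 234 normalized counts (SD, n = 6), with a limma log2 fold change of -1.16 ± 0.16 (SE) and of -1.09 without horse 1. The log2 ratio was -1.51 in horse 1 and between -1.30 and -0.88 in the other horses, so in horses 3 and 5 the fall was less than the 2-fold change the table requires of the means. The adjusted p in the authors' deposited table was 8.4e-15.

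S100A3 (ENSECAG00000008203), a cysteine-rich and zinc-binding member best known from the hair cuticle in human and mouse, was read at low depth. Its naive libraries held 23 to 68 reads and its licensed libraries 7 to 24. As normalized counts these were 23.9 to 72.8 with a median of 53.4 in naive cells, and 7.16 to 22.0 with a median of 16.4 in licensed cells. The groups only just failed to overlap, with a factor of 1.09 between the lowest naive and the highest licensed library. These were horse 5 with 23 reads and horse 6 with 24 reads. The 95% exact Poisson intervals of their values overlapped (15.2 to 35.9 and 14.1 to 32.7 normalized counts), so this gap was not wider than counting error. The mean went from 51.8 ± 16.3 to 15.05 ± 6.19 normalized counts (SD, n = 6), with a limma log2 fold change of -1.75 ± 0.35 (SE). Horse 5 had 23.9 normalized counts when naive and 20.3 when licensed, a log2 ratio of -0.22 with a counting error of 0.43, so a change was not detectable at this depth in that horse. The other 5 horses had log2 ratios between -2.71 and -1.11. Without horse 5 the limma log2 fold change was -2.06, and without horse 1 it was -1.56. The authors' deposited table gave -1.77 with an adjusted p of 2.67e-06.

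**Figure D1:**
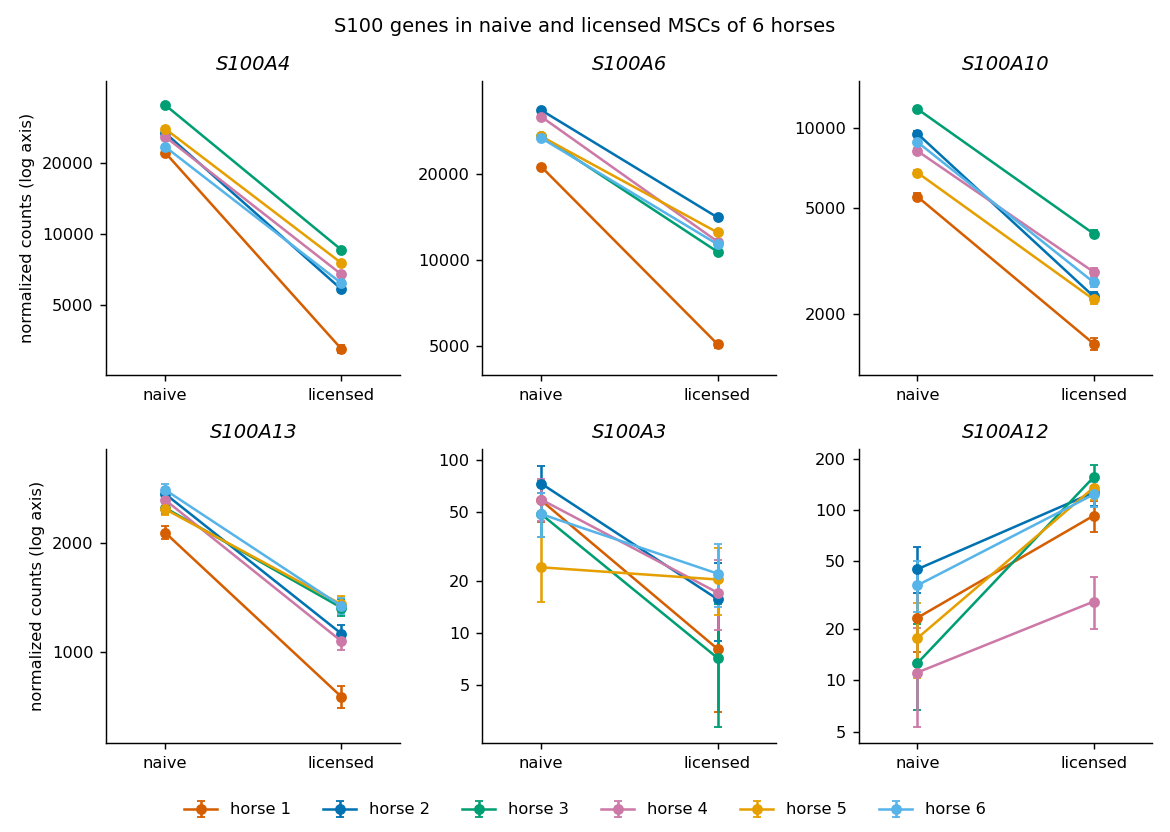
Normalized counts of the 6 S100 genes in naive and licensed MSCs, on a log axis with its own range in each panel. Each line joins the 2 libraries of 1 horse, and bars are 95% exact Poisson intervals of the reads, which cover counting error only. S100A4, S100A6, S100A10 and S100A13 are lower in licensed cells with no overlap of the groups, as for 53.5% of all genes listed as lower. The S100A3 values do not overlap either, but the bars of its closest naive and licensed libraries do. The S100A12 groups overlap through the licensed library of horse 4 at 29.0 normalized counts.

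S100A12 (ENSECAG00000009742), or calgranulin C, is a ligand of RAGE that is abundant in human neutrophils and missing from the mouse genome. It was the 1 member listed as higher in licensed cells. Naive libraries held 10 to 42 reads, or 11.1 to 45.0 normalized counts with a median of 20.48. Licensed libraries held 34 to 153 reads, or 29.0 to 156 normalized counts with a median of 125. The value rose in 6 of 6 horses, but the groups overlapped, because the licensed library of horse 4, at 29.0, was below the naive libraries of horse 2 at 45.0 and of horse 6 at 36.1. The other 5 licensed libraries lay between 92.9 and 156. The 95% exact Poisson interval of the licensed value of horse 4 was 20.1 to 40.6 normalized counts and that of the next lowest library, horse 1, was 74.9 to 114, so this gap was wider than counting error. The naive library of horse 4 was also the lowest of its group, at 11.1.

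The mean of S100A12 went from 24.3 ± 13.6 to 111 ± 45.1 normalized counts (SD, n = 6), with a limma log2 fold change of 2.15 ± 0.45 (SE). The horses ranged from a log2 ratio of 1.31 in horse 4 and 1.48 in horse 2 to 2.87 in horse 5 and 3.53 in horse 3. As folds, S100A12 was 2.61-fold higher in horse 4 and 12.4-fold higher in horse 3. Horses 3 and 5 had 12.6 and 17.7 normalized counts in naive cells and the highest 2 values, 156 and 136, in licensed cells. Without horse 3 the limma log2 fold change was 1.87, without horse 4 it was 2.32 and without horse 1 it was 2.19. The authors' deposited table gave 2.19 with an adjusted p of 2.31e-06, the 180th largest rise of 670. S100A12 is a myeloid gene in human tissue, and since 0 of 20 myeloid markers were listed and their levels were not analysed here, the part of such cells in this value was not tested.

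**Figure D2:**
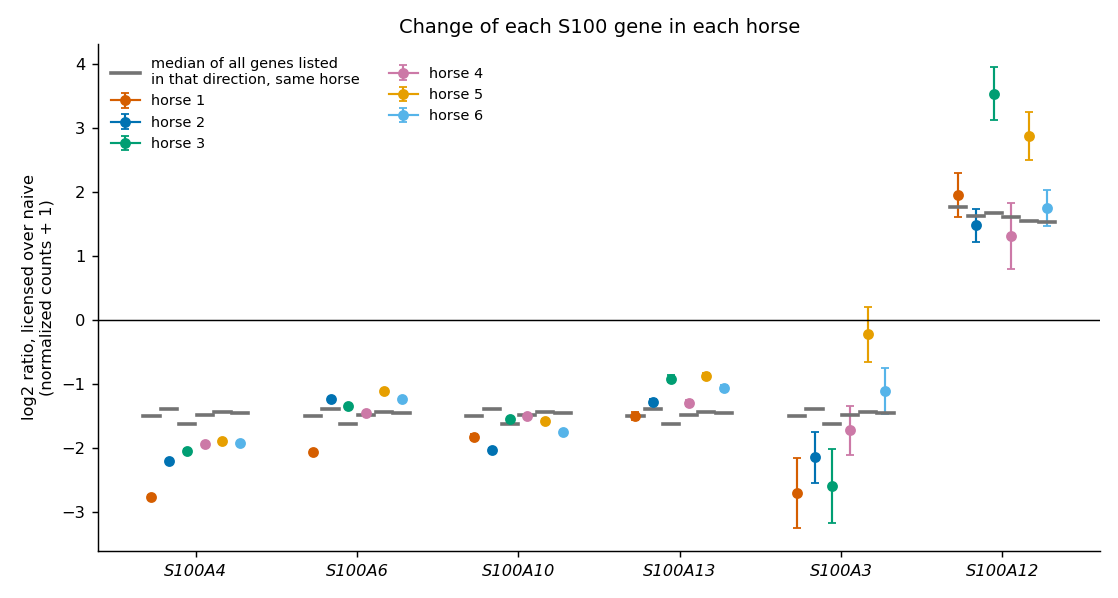
The log2 ratio of licensed over naive normalized counts, with 1 added to each, for each S100 gene in each of the 6 horses. Bars are the counting error (1 standard error from the reads), and short grey lines give the median of all listed genes of the same direction in the same horse. Horse 1 lies at -2.77 for S100A4 and -2.06 for S100A6, below the other 5 horses, and S100A12 spreads from 1.31 to 3.53.

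Set beside all listed genes, the falls of S100A4 were steeper in every horse than the median of the 671 genes listed as lower, which lay between -1.63 and -1.39 on the log2 scale by horse. S100A10 was steeper than that median in 5 and S100A3 in 4 of 6 horses, while S100A6 and S100A13 were less steep in 5 of 6. The rise of S100A12 was above the median of the genes listed as higher in 4 of 6 horses. The median deposited log2 fold change of the 5 members listed as lower was -1.69, and that of all 671 genes was -1.48. In horse 1 the median of all 671 genes was -1.496, within the range of the other horses. S100A4, S100A6, S100A13 and S100A3 had their steepest falls there, and S100A10 in horse 2. For S100A3 the log2 ratios of horses 1 and 3, -2.71 and -2.60, differed by less than counting error. How many of the 671 genes fell most in horse 1 was not counted. For the 5 members that were lower, the naive and licensed groups did not overlap, as for 53.5% of all genes listed as lower. The gap of S100A3 was not wider than counting error. For genes listed as higher, 64.9% had groups that did not overlap, and S100A12 was not one of these. A change in the same direction in all 6 horses was seen for 93.3% of the genes listed as lower and 94.3% of those listed as higher. Nothing is read from these counts for the members, since the rule that chose them used the same comparison.

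The members that were lower did not fall in step. The ratio of reads of a pair of genes within 1 library is free of the size factor, and S100A4 reads per S100A6 read went from a median of 0.954 in naive to 0.590 in licensed libraries, lower in 6 of 6 horses. The naive range was 0.803 to 1.296 and the licensed range 0.412 to 0.799, so the ranges of this ratio only just failed to overlap. The closest values were those of naive horse 2 and licensed horse 3, where the counting error of each gene was 0.566% to 1.09%. This gap was thus not wider than counting error. How many other pairs of listed genes behave likewise was not counted. S100A10 reads per S100A13 read fell in 6 of 6 horses, from a median of 3.13 to 2.07, with overlapping ranges of 2.58 to 4.70 and 1.68 to 3.02. S100A4 reads per S100A10 read were also lower in 6 of 6 horses, with medians of 3.07 and 2.33. Between S100A6 and S100A13 the ratio was lower in 5 of 6 horses and slightly higher in horse 2, with medians of 10.8 and 8.85. As plain ratios, S100A3 had the largest fall of all members in horses 1, 2 and 3 and S100A4 in horses 4, 5 and 6. With 1 added to each value, S100A4 had the largest fall in 5 of 6 horses, so this order depends on the few reads of S100A3. Reads of S100A4 per read of S100A12 went from a median of 1265 in naive to 52.3 in licensed libraries.

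**Figure D3:**
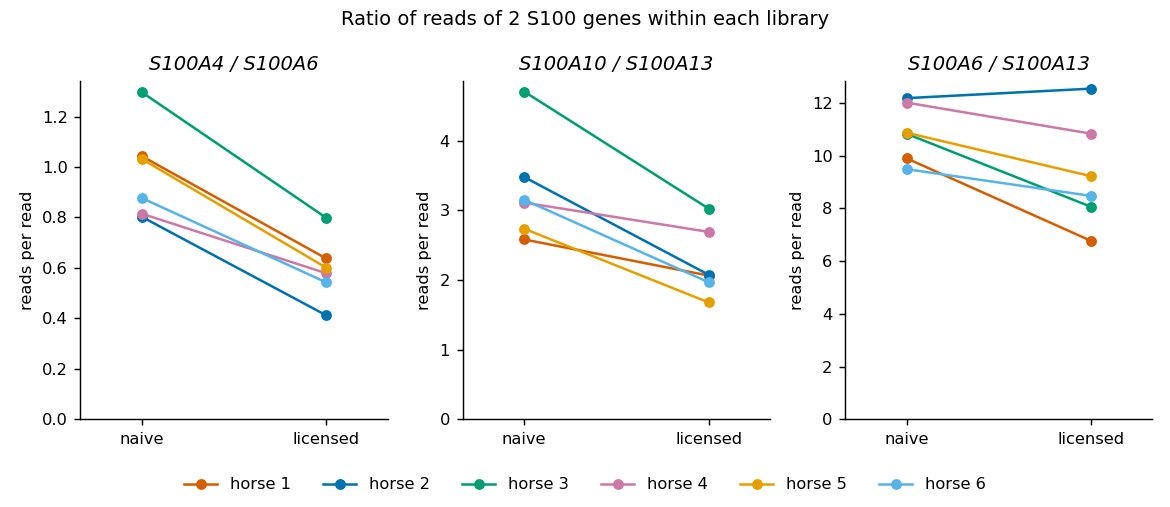
Reads of 1 S100 gene per read of another within the same library, in naive and licensed MSCs, with a line for each of the 6 horses and axes that start at 0. S100A4 per S100A6 and S100A10 per S100A13 are lower in licensed cells of all 6 horses, while S100A6 per S100A13 is higher in horse 2.

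Variation between horses was larger in licensed than in naive cells for S100A4, S100A6, S100A10 and S100A13, and for S100A4 and S100A6 the conditions were nearly alike when horse 1 was left out. The coefficient of variation of S100A4 was 17.2% over the naive and 28.5% over the licensed libraries, and without horse 1 it was 15.98% and 15.8%. Without horse 3, which had the highest naive value, it was 9.51% and 27.4%. For S100A6 it was 15.4% and 28.2%, and without horse 1 10.7% and 10.9%. For S100A13 it was 9.35% and 20.2% with all horses and 5.39% and 10.8% without horse 1, and for S100A10 it was 25.8% and 31.3% with and 20.4% and 24.97% without that horse. These values lie well above counting error, which was 0.623% for naive and 1.22% for licensed S100A4. For S100A3 the counting error alone was 14.2% in naive and 24.9% in licensed libraries, against observed values of 31.5% and 41.1%. Without horse 5 the observed naive value was 17.4%, near the counting error, and the licensed value 44.9%. For S100A12 the variation went the other way, from 55.9% in naive to 40.7% in licensed libraries, and to 18.1% in licensed libraries without horse 4. Its counting error alone was also larger in naive libraries, at 20.8% against 9.33% in licensed libraries. These differences in spread were not tested.

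The likeness of other listed genes to each member was measured as the root mean square difference of their log2 values over the 12 libraries, each gene centred on its own mean. The genes nearest to S100A4 were NAPEPLD, an enzyme that makes N-acylethanolamines, at 0.25, the lipocalin gene APOD at 0.26 and the acyl-CoA synthetase gene ACSM3 at 0.31, against a median of 1.63 over all other listed genes. S100A10 was as close to S100A4 as ACSM3 was, at 0.31. The median takes in genes listed in either direction, and the measure includes the difference between conditions. Genes listed in the same direction as a member therefore tend to lie nearer to it than that median, whatever their variation between horses. Nearest to S100A6 were the atypical cadherin gene FAT4 at 0.17, the membrane protein gene EMP1 at 0.20 and KANK2, a scaffold of focal adhesions, at 0.21, and S100A13 lay at 0.26. S100A10 had THBS3, a thrombospondin, at 0.28, the translation inhibitor gene PDCD4 at 0.29 and NAPEPLD at 0.30. The closest likeness of all was that of S100A13 to SPSB2, an adaptor of ubiquitin ligases, at 0.11, followed by EHD2, an ATPase of caveolae, at 0.15 and C5H1orf21 at 0.16. EHD2 (ENSECAG00000028265) went from 14808 ± 1015 to 7197 ± 1394 normalized counts.

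The members with few reads had less close matches. S100A3 lay at 0.38 from the mitochondrial carbonic anhydrase gene CA5B, at 0.42 from the monooxygenase-like gene MOXD1 and at 0.44 from the lysosomal transporter gene SLC46A3. The genes nearest to S100A12 were BCAT1, which encodes a branched-chain aminotransferase, at 0.67, INHBB, an activin subunit gene, at 0.68 and SLC7A5, a transporter of large amino acids, at 0.70. In BCAT1 and INHBB, as in S100A12, the licensed library of horse 4 was the lowest of its group, at 155 normalized counts (median 664) for BCAT1 and at 17.1 (median 36.2) for INHBB. In SLC7A5 it was not the lowest. These genes were picked for their likeness to S100A12 over the same libraries, so the low values in horse 4 are not separate observations.

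**Figure D4:**
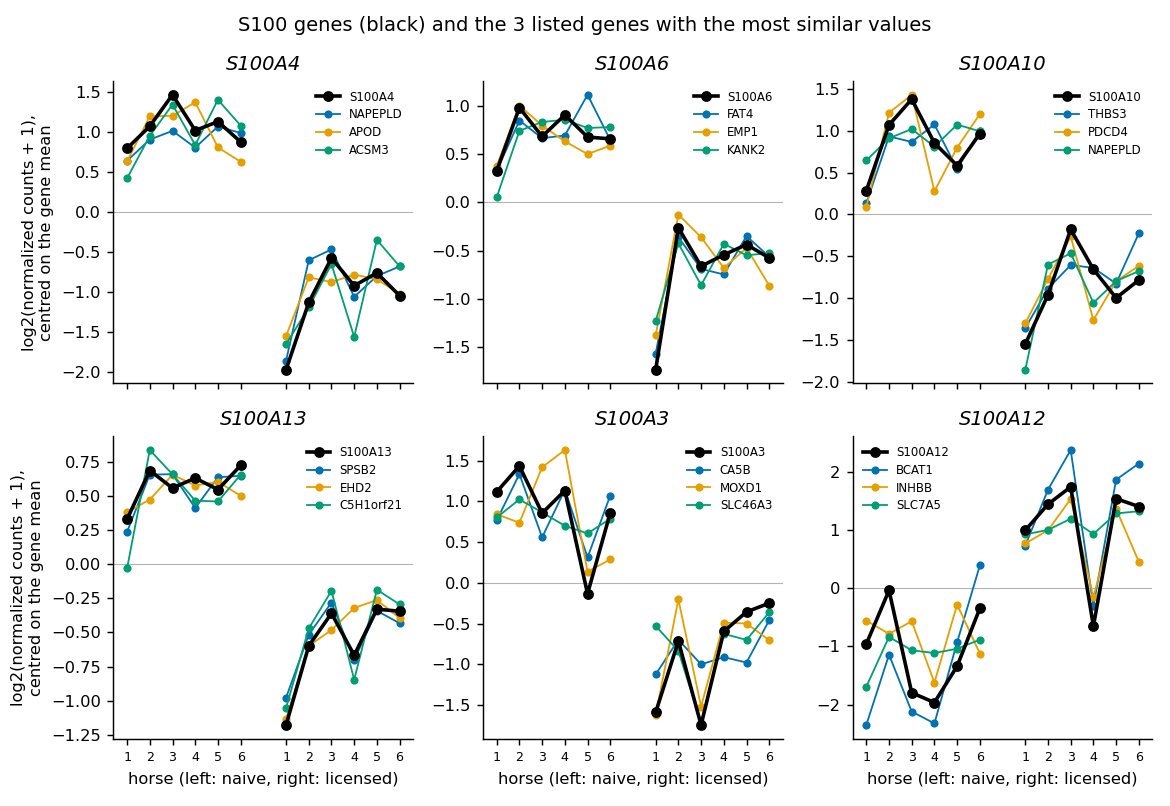
Log2 of normalized counts plus 1, centred on the mean of each gene over the 12 libraries, for each S100 gene (thick black) and the 3 other listed genes with the smallest root mean square difference from it. Points are libraries by horse, naive on the left and licensed on the right, and lines only join points of 1 gene. The 3 neighbours of S100A13 lie within 0.16 of it, while those of S100A12 are 0.67 or more away, and the licensed value of horse 4 is the lowest of its group in S100A12, BCAT1 and INHBB but not in SLC7A5.

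Of 73 genes of annexins and of other intracellular and surface partners of S100 proteins, 6 were listed (8.22%). Of all tested genes 10.2% were listed. How many of the 73 were tested is unknown, so the shares have unlike bases and nothing is read from their closeness. Of 12 annexin genes, ANXA3 and ANXA4 were listed, both as lower, and ANXA2, the partner of S100A10, was not among them. ANXA4 (ENSECAG00000012321), a membrane-binding annexin, went from 6098 ± 554 to 2825 ± 349 normalized counts (SD, n = 6), lower in 6 of 6 horses. ANXA3 (ENSECAG00000018419) went from 145 ± 48.3 to 51.8 ± 26.9, with overlapping groups. Of 40 intracellular partners, FGF1 was listed as higher and VIM as lower. FGF1 (ENSECAG00000020769), the growth factor whose release involves S100A13, rose from 19.0 ± 5.22 to 248 ± 89.6 normalized counts with no overlap of the groups, while S100A13 was lower in the same licensed cells. VIM, vimentin, went from 242290.1 ± 21513 to 115530 ± 17992 normalized counts, and the myosin gene MYH9, the target of S100A4, was not listed.

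Of 21 receptors and surface partners, PLAUR was listed as higher and MCAM as lower, while AGER, which encodes RAGE, and TLR4 were not listed. PLAUR (ENSECAG00000022127), the urokinase receptor of plasminogen activation, rose from 1225 ± 382 to 4088 ± 704 normalized counts (SD, n = 6). MCAM (ENSECAG00000013036), a surface glycoprotein reported to bind the S100A8 and S100A9 dimer, went from 502 ± 183 to 190.4 ± 40.1. Among 7 genes that fuse an S100 domain to long repeats, TCHHL1 (ENSECAG00000034035) went from 129 ± 137 to 18.3 ± 15.5 and CRNN (ENSECAG00000017658) from 44.2 ± 28.6 to 15.6 ± 5.21 normalized counts. Both were lower in 6 of 6 horses with overlapping groups.

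Other genes with EF-hands moved in both directions, with 2 of 61 listed as higher and 5 as lower. The largest changes were those of CALML4, a calmodulin-like gene, KCNIP3, a calcium sensor of potassium channels, CALB2, which encodes calretinin, and PLS1, an actin-bundling gene. CALML4 (ENSECAG00000021844) went from 44.5 ± 18.2 to 7.32 ± 1.85 normalized counts (SD, n = 6) with no overlap. The groups overlapped for KCNIP3, CALB2 and PLS1, with log2 fold changes of -2.29, -2.25 and -2.09 in the authors' deposited table, and CALB2 was lower in 5 and PLS1 in 4 of 6 horses. Of 18 other secreted danger signals, TNC and VCAN were listed as higher and LGALS3 as lower. The matrix gene TNC (ENSECAG00000017433), an activator of TLR4, rose from 12901 ± 4598 to 43312 ± 11186, and LGALS3 (ENSECAG00000006474), galectin-3, went from 9027 ± 1324 to 3815 ± 559 normalized counts. VCAN (ENSECAG00000019596), the versican gene, rose from 9823 ± 3997 to 32690.0 ± 10891. Of all tested genes 10.2% were listed, and how many genes of these lists and of the fused genes were tested is unknown. These lists are short, and nothing particular to S100 genes is read from them.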

How the data were processed

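Bulk RNA-seq of 6 naive and 6 licensed libraries, paired by horse, was used. The tools named in the submitters' processing notes are Trimmomatic 0.36 (trimming), STAR 2.5.2b (alignment), Subread 1.5.2 with its featureCounts (counting) and DESeq2 (testing). The sources used here give no version of the latter, no genome build and no annotation. The authors deposited 1 table of the genes past their thresholds, with their log2 fold change, p-value, adjusted p-value and a signal per library. In each library 100% of these deposited signal values were whole multiples of 1 step (within 0.01 reads), so reads were recovered. The step of the licensed library of horse 1 was 1.01, close to 1. DESeq2 1.42.0 on the recovered reads, without a term for the horse, gave the deposited log2 fold changes (0 of 1341 genes differed by more than 0.01). The number of genes tested was taken from adjusted p over p, where 89.2% of ranks came out whole, against 19.9% for the next best number that is no multiple.

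Log2 fold changes with an SE are from limma 3.58.1 (trend, robust, R 4.3.3) on log2(normalized count + 1), fitted over all 1341 genes without the horse, and understate the change of low genes. Fits were tested on simulated counts in which only part of the genes changed and the horse had no effect. Both settings differ from these data, so that test does not check the errors given here. Same-numbered libraries come from the same horse, and their deviations from the group means correlated by 0.484 to 0.631 in every horse. Alternatives were pseudocounts of 0.5 and 10, a minimum mean of 10, the horse as a block, TMM scaling, edgeR 4.0.16, DESeq2 and leaving out each horse. Named genes are all members, the 3 most alike genes of each, every listed gene of 4 partner lists and the 4 largest changes of 2 further lists. Cell type marker genes, and BCAT1 and INHBB in horse 4, were singled out after their values were seen. Members and lists were chosen with earlier results of these data known. Poisson intervals cover counting error only.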

Additional observations from a re-analysis of the deposited data

Results flagged for a closer look

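Of 82 sets of 6 values examined for the members and the other named genes, 6 had an extreme sample whose gap to its neighbour exceeded Dixon's critical value of 0.625 of the whole range, where chance gives about 1 in 20. For the log2 ratio of licensed over naive, horse 1 lay below the other 5 horses for S100A4 (gap 0.644 of the range) and for S100A6 (0.646), at -2.77 and -2.06. The licensed library of horse 1 was also lowest for APOD, at 84.8 normalized counts against 123 to 145 in the others (gap 0.629), and its naive library for KANK2, at 5997 against 9670 to 10461 (gap 0.823). The naive library of horse 6 was highest for BCAT1, at 253 against 37.0 to 101 (gap 0.705). The naive library of horse 2 was highest for KCNIP3, at 90.0 against 14.8 to 37.4 (gap 0.699). The APOD and KANK2 values come from genes picked for their likeness to S100A4 and S100A6, so they are not separate observations from the low values of horse 1 in those members.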

How the results depend on the processing

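All 6 members kept their direction and stayed past both thresholds (an adjusted p under 0.05, a change over 2-fold) under each of the 14 alternatives run, with 5 called lower and 1 higher in all of them, leaving out any 1 horse included. Since the table was selected on these same libraries, this is no independent evidence. With the horse as a block, limma's log2 fold changes were the same by construction, its SE for S100A4 was 0.13 in place of 0.21, and no call of a member changed. The SE with the block was 0.13 for S100A6, 0.11 for S100A10, 0.12 for S100A13, 0.34 for S100A3 and 0.30 for S100A12. TMM scaling over the listed genes lowered the log2 fold changes of limma by a median of 0.24, which gave -2.37 for S100A4, -1.40 for S100A13 and 1.92 for S100A12. The largest effect of a pseudocount of 10 was on S100A3 (-1.29) and S100A12 (1.77). Depth limits S100A3 and S100A12, the members with at most 68 and 153 reads per library. With a pseudocount of 10, the SD of the log2 ratio between horses was 0.67 in place of 0.95 for S100A3 and 0.73 in place of 0.87 for S100A12. The order of these members was thus reversed, as it was without horse 5 (0.66 and 0.89) and without horse 1 (0.93 and 0.97).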
